A study of Drosophila melanogaster with 4 samples.

Results

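The DNA damage checkpoint and repair genes described here are 31 of the 8806 rows of genes and transposable element families measured by RNA sequencing in BG3 cells. They were chosen by name, from known roles in damage signalling, break repair, excision repair, mismatch repair, crosslink repair and the SMC5/6 complex. The rule used no values, but earlier results of these data were known when the genes were chosen. Of the 31 genes, 29 matched a row by symbol and 2 by an alias (mus308 is listed as PolQ and mus210 as Xpc).

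BG3 is a Drosophila melanogaster cell line from the larval central nervous system. The knockdown cells received dsRNA against Cap-H2, a subunit of condensin II, and the control cells received dsRNA against Brown (bw), an eye pigment gene. In both groups the dsRNA dose was 20 µg, given for 30 min in serum-free medium, and RNA was taken after 4 days of culture. Each group held 2 libraries, with no word in the labels on whether these were separate cultures, so a p-value here reflects the spread between libraries, which may be only technical. The libraries held 21935781 and 21762964 reads on genes in the knockdown, against 21682729 and 21539511 in the control. Control library 1 stood apart: over all genes, chi-square over degrees of freedom was 6.29 and 7.53 between it and the knockdown libraries and 4.87 between it and control library 2, against 3.95 and 4.08 between control library 2 and the knockdown libraries. Without control library 1, the median log2 fold change (knockdown over control) was -0.031 for the 31 genes, against -0.0016 for all rows tested. Both groups came from the same cell line, and the level of a transcript is an average over its cells, so fewer cells with a transcript and less of it per cell cannot be told apart.

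DNA breaks and stalled replication forks are sensed by the kinases ATM and ATR, which act through the checkpoint kinases and, in part, through the transcription factor p53. Broken ends are then rejoined by homologous recombination, by Ku-dependent end joining or by polymerase theta, while damaged or mispaired bases are removed by excision and mismatch repair. Many fly repair genes carry names such as mus (mutagen sensitive) or mei (meiotic), after the mutants in which they were found. Much of this pathway is regulated through phosphorylation of its proteins, which RNA sequencing does not measure.

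Cap-H2 fell to 62.7% of the control: its normalized counts (read counts after division by each library's size factor) were 543 and 555 in the knockdown, against 880 and 873 in the control. The log2 fold change of knockdown over control was -0.67 (SE 0.06, limma's Benjamini-Hochberg adjusted p = 1.5e-05). The knockdown was partial, and the repair genes were compared between cells with less and with more Cap-H2 RNA, not between cells without it and with it. Cell-type markers fixed by name summed to 27195 and 28582 normalized counts for 9 neural genes in the knockdown, against 28113 and 26949.8 in the control. The 6 haemocyte genes summed to 22132 and 22260 in the knockdown, against 22114 and 21977 in the control. That total came mostly from drpr, srp and ush, while NimC1 had at most 7.87 normalized counts in any library. Of the single markers, the haemocyte gene Hml had 221 and 239 in the knockdown, against 339 and 287 in the control (log2 fold change -0.44, limma adjusted p = 0.10), and its part in the results was not tested. The neural total came mostly from Syp and Imp, RNA-binding proteins of neural progenitors. The synaptic gene nSyb and the neuroblast genes dpn, pros and mira had at most 24.4 normalized counts in any library. Other neural genes had more: elav lay between 531 and 577, futsch between 231 and 248, and the glial gene repo between 76.0 and 90.5. Per kb of exon these were low too, with means of 53.2 in the knockdown and 50.9 in the control for elav. The means per kb were 10.1 in the knockdown and 10.3 in the control for futsch, and 26.7 and 27.8 for repo. All 3 lay below the lower quartile of the coding genes tested, 141 per kb. Of the haemocyte genes, drpr had means per kb of 1987 in the knockdown and 1901 in the control, srp 1026 and 1062, and ush 875 and 862. These lay above the upper quartile, 692 per kb, as did the neural gene Syp at 1785 and 1779. Pxn (110 and 119), Hml (19.6 and 26.6) and NimC1 (1.83 and 2.11) lay below the lower quartile. Of the muscle genes, Mef2 lay between 2799.9 and 2934 and Mhc between 9.14 and 12.0. The fat body genes on the list, Lsp2 and Fbp1, had no row, nor did the neural genes Syt1, wor, ase and chinmo and the haemocyte gene He.

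None of the 31 repair genes passed the threshold (adjusted p of 0.05, limma), where 30 of the 7690 rows tested passed, or 0.39%. At that background a count of 0 among 31 genes does not set the repair genes apart from other genes. All 31 lay above the minimum mean of 10 normalized counts for testing. At an unadjusted p of 0.05, 3 of them (9.68%) were below it in limma, against 8.13% of all rows. They were Parp and mus201 on the higher side, where 4.34% of rows stood, and grp on the lower side, where 3.78% stood. The edgeR test on the recovered whole reads gave the same 3 genes against 8.36% of rows, with 0 of the 31 called against 0.364% of rows. DESeq2 with its independent filtering called 0.52% of rows and 0 of the 31, but it gave no adjusted p for 24 of the 31 genes and 5367 of the 7690 rows, which could not be called. Without that filtering it called 0 of the 31 against 0.455% of rows, and at the unadjusted threshold it had 0 of the 31 against 2.86%. The authors' deposited table also had 0 of the 31 at an adjusted p of 0.05, with 0.363% of its rows there, and 0 at an unadjusted p of 0.05, with 2.37% of its rows there. Its smallest unadjusted p among them was 0.114, for grp.

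The differences were small in both directions. The log2 fold changes ran from -0.10 for SMC6 to 0.13 for mus201, with 15 above 0 and 16 below, where 49.9% of all rows were above 0 and 50.1% below. Their median was -0.00496, against -0.000145 for all rows tested, and their median size without the sign was 0.0458, against 0.0567 for all rows. The adjusted p ran from 0.55 to 0.99. A p that misses the threshold does not show that a level did not differ, so the 95% intervals matter: over the 31 genes the lowest bound was a change of -17.7% from the control (okr) and the highest one of 19.3% (mus201). Intervals of this width come from limma's spread, which rests on 2 residual degrees of freedom per gene and a prior of 14.4 pooled over genes.

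**Figure D1:**
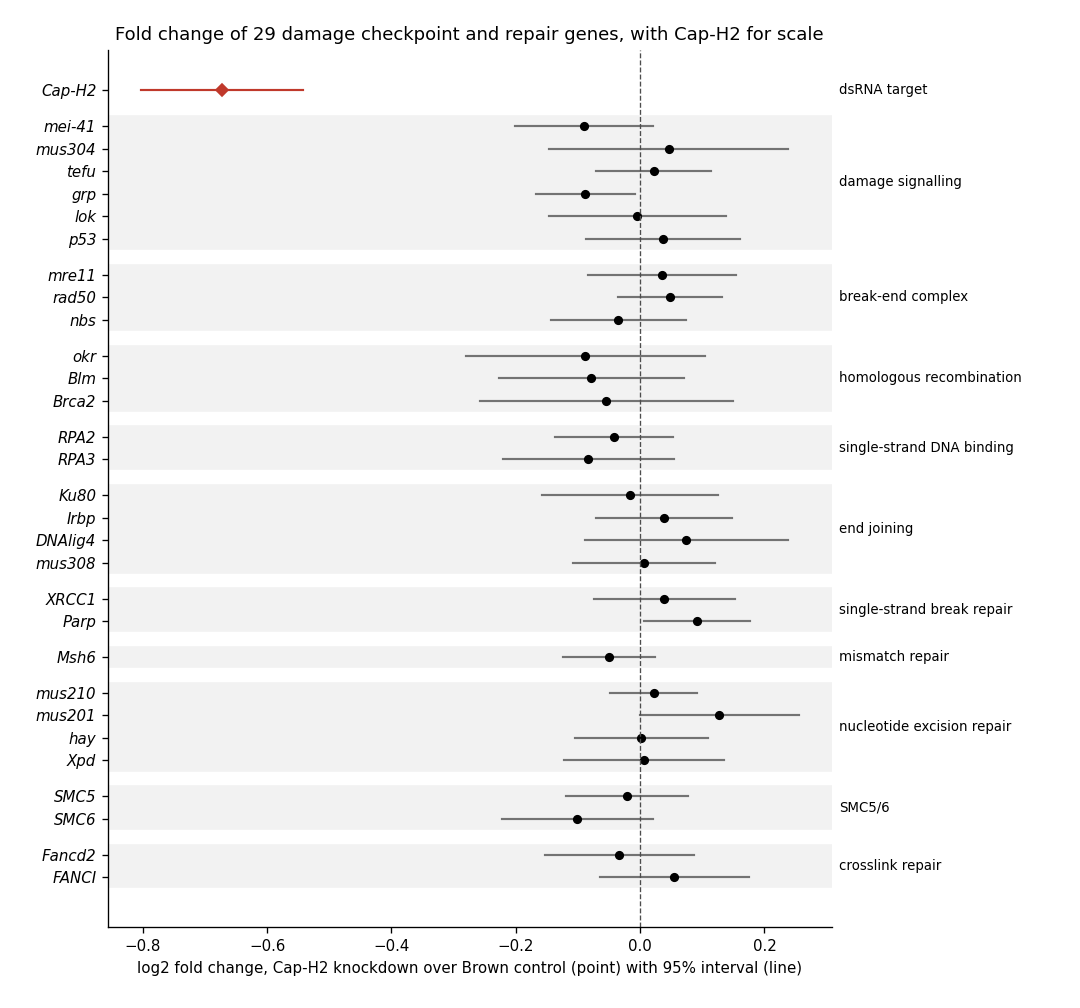
Log2 fold change of Cap-H2 knockdown over Brown control (horizontal axis) for 29 of the 31 repair genes, grouped by role down the page, with bars for limma's 95% interval and Cap-H2 drawn for scale. The estimates lie between -0.10 and 0.13, and the intervals of grp, Parp and mus201 do not hold 0.

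In 16 of the 31 genes (51.6%) the knockdown and control libraries did not overlap, against 38.7% of all rows. Of these, 8 lay higher in the knockdown (p53, rad50, DNAlig4, XRCC1, Parp, mus210, mus201 and FANCI) and 8 lower (among them mei-41, grp, nbs, RPA2, Msh6, SMC6 and Fancd2). In 10 genes (32.3%) the difference between the groups was larger than both differences between libraries of a group, against 25.9% of all rows. The summed normalized counts of the 31 genes were 41221 and 41107 in the knockdown, against 40821 and 41792 in the control, so the total overlapped between groups.

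Among the damage-signalling genes, 3 of 6 had a positive and 3 a negative log2 fold change, and none passed the threshold. The fly Chk1 kinase gene grp (grapes; FBgn0261278, chromosome arm 2L, 16680054 to 16699926, plus strand) had the smallest p of the 6. Its normalized counts were 2633 and 2617 in the knockdown, against 2818 and 2765 in the control. Both knockdown libraries lay below both control libraries. The means were 2625 ± 11.4 in the knockdown and 2792 ± 37.7 in the control (SD, n = 2 each). The log2 fold change, -0.09, had an SE of 0.04 and a 95% interval of -0.17 to -0.01 (limma adjusted p = 0.55). Over 223 of its 3049 bp of exon, grp lies on the same strand as exons of squ, where a read fits either gene. Leaving out a library gave log2 fold changes for grp of -0.10 to -0.07.

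The kinase upstream of grp, ATR, is encoded by mei-41, and its partner ATRIP by mus304. The counts of mei-41 were 1169.7 and 1179.8 in the knockdown, against 1303 and 1200.4 in the control. The knockdown lay below the control, though control library 2 was nearer to the knockdown than to control library 1 (log2 fold change -0.09, 95% interval -0.20 to 0.02). Counts of mus304 were 326 and 312 in the knockdown, against 319 and 299 in the control, and the groups overlapped. The ratio of mei-41 to mus304 per kb of exon was 1.28 and 1.35 in the knockdown, against 1.46 and 1.43 in the control. These ratios did not overlap, but the log2 difference of -0.14 had a counting interval of -0.32 to 0.04, so it was within the counting error of both genes.

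The ATM gene tefu and the Chk2 gene lok overlapped between the groups. The counts of tefu were 2028 and 2163 in the knockdown, against 2044 and 2082 in the control. Those of lok were 844 and 736 in the knockdown, against 788 and 793 in the control, with means of 789.8 ± 76.0 and 791 ± 3.59 (SD, n = 2 each). Here the 2 knockdown libraries lay on either side of both controls, and the log2 fold change was -0.00 (95% interval -0.15 to 0.14), slightly above 0 under median centring and quantile normalization. The damage-responsive transcription factor gene p53 had 792 and 819 normalized counts in the knockdown, against 781 and 789 in the control. The knockdown lay above the control, with a difference of means smaller than that between the knockdown libraries (log2 fold change 0.04, 95% interval -0.09 to 0.16). An antisense RNA covers 812 of the 2136 bp of p53 exon, and no source used here says whether reads were counted by strand.

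Of 10 p53 targets and damage-response genes listed by name, 8 were tested. None passed the threshold in limma, where 0.39% of rows did, or in edgeR, where 0.364% did. None was called in DESeq2 either, but with its independent filtering 5367 of the 7690 rows had no adjusted p. At an unadjusted p under 0.05 the count was 0 in each, against 8.13% of rows in limma, 8.36% in edgeR and 2.86% in DESeq2. Their median log2 fold change was -0.01. Both knockdown libraries lay below both controls in 2 of them, the pro-apoptotic gene rpr (reaper) and egr (eiger), which encodes a TNF ligand. That share of 25% was near the 19.5% of all rows. The counts of rpr were 75.8 and 71.1 in the knockdown, against 83.6 and 96.0 in the control (log2 fold change -0.28, SE 0.17, limma adjusted p = 0.69). Another cell death gene, hid, had 1264 and 1379 in the knockdown, against 1277 and 1267 in the control, and its groups overlapped. The same held for the stress gene Gadd45, with 959 and 1109 in the knockdown, against 1071 and 1080.3 in the control.

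The break-end complex of Mre11, Rad50 and Nbs binds and trims broken ends and activates ATM. Its 3 genes did not move one way: mre11 and rad50 had positive and nbs a negative log2 fold change, and none passed the threshold. The counts of rad50 (FBgn0034728, chromosome arm 2R) were 2667 and 2643 in the knockdown, against 2507 and 2629 in the control. Both knockdown libraries were above both controls, but the control libraries differed from each other by more than the group means. The means were 2655 ± 17.4 in the knockdown and 2568 ± 86.0 in the control (SD, n = 2 each). On the log2 scale the difference was 0.05 (SE 0.04, 95% interval -0.04 to 0.13), with limma's adjusted p at 0.80.

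The nuclease gene mre11 had 1336 and 1385 normalized counts in the knockdown, against 1251 and 1408 in the control. Its groups overlapped, and its control libraries differed by 0.17 on the log2 scale, beyond counting error. The counts of nbs were 1039 and 1049 in the knockdown, against 1058 and 1081 in the control, with the knockdown slightly below. Per kb of exon, the ratio of rad50 to mre11 was 0.987 and 0.943 in the knockdown, against 0.991 and 0.923 in the control. The 2 genes thus had nearly equal RNA levels per length in every library, and nbs was lower, at 0.602 and 0.587 of mre11 in the knockdown, against 0.655 and 0.595 in the control.

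The homologous recombination genes okr (Rad54, a motor protein of strand exchange), Brca2 (a mediator of recombination) and Blm (a helicase that undoes recombination intermediates) had negative log2 fold changes, between -0.09 and -0.05. In each of these 3 the libraries of the groups overlapped. The counts of Blm (FBgn0002906, chromosome arm 3R, 11736810 to 11741783, minus strand) were 577 and 649 in the knockdown, against 646 and 646 in the control. Knockdown library 1 was below the controls and knockdown library 2 was level with them. The means were 613 ± 50.5 in the knockdown and 646 ± 0.193 in the control (SD, n = 2 each). The log2 fold change, -0.08, had an SE of 0.07 and a 95% interval of -0.23 to 0.07 (limma adjusted p = 0.82). Without knockdown library 1 that of Blm was 0.01, and without knockdown library 2 it was -0.16.

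The counts of okr were 371 and 326 in the knockdown, against 383 and 357 in the control. Those of Brca2 were 351 and 301 in the knockdown, against 327 and 348 in the control. In both okr and Brca2 the lowest library was knockdown library 2, whereas in Blm it was knockdown library 1. The lowest library was thus not the same in the 3 genes. Exons of Bem46 on the opposite strand cover 482 of the 2878 bp of okr exon.

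Replication protein A coats single-stranded DNA at resected breaks and stalled forks, and the 31 genes include its middle and small subunits. RPA3 (FBgn0288833, chromosome X, 11615097 to 11615840, minus strand) had 739 and 791 normalized counts in the knockdown, against 772 and 849 in the control. The groups overlapped, and within each group library 2 was the higher. Its means were 765 ± 36.8 in the knockdown and 811 ± 54.3 in the control (SD, n = 2 each). On the log2 scale the difference was -0.08 (SE 0.06, 95% interval -0.22 to 0.05), with limma's adjusted p at 0.79. RPA2 had 1715 and 1629.5 in the knockdown, against 1721 and 1723 in the control, with both knockdown libraries lower and knockdown library 1 only just so. The large subunit RPA1, outside the 31 genes, had 5361 and 5394 in the knockdown, against 5566 and 5608 in the control, with both knockdown libraries lower (log2 fold change -0.06, limma adjusted p = 0.68).

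Of the 4 end-joining genes, 3 had a positive log2 fold change and 1 a negative one, all between -0.02 and 0.07. DNA ligase 4 seals the ends in Ku-dependent joining, and its gene DNAlig4 (FBgn0030506, chromosome X, 13664584 to 13667811, minus strand) had 456 and 436 normalized counts in the knockdown, against 416 and 430.1 in the control. The groups did not overlap, with the knockdown higher. The means were 446 ± 14.2 in the knockdown and 423 ± 9.84 in the control (SD, n = 2 each). The log2 fold change, 0.07, had an SE of 0.08 and a 95% interval of -0.09 to 0.24 (limma adjusted p = 0.84).

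The Ku heterodimer, which caps broken ends, is encoded by Ku80 and Irbp (Ku70). Ku80 had 1336 and 1224 normalized counts in the knockdown, against 1191 and 1406 in the control. Its control libraries enclosed both knockdown libraries, and both groups held a difference between libraries beyond counting error, of -0.13 in the knockdown and 0.24 in the control on the log2 scale. Irbp had 1426 and 1488 in the knockdown, against 1358 and 1481 in the control, and also overlapped. The Ku80 to Irbp ratio per kb was 0.874 and 0.767 in the knockdown, against 0.818 and 0.885 in the control, so the subunits stood at similar levels in both groups. Polymerase theta, encoded by mus308, had 980.2 and 949 in the knockdown, against 948 and 973 in the control, with a log2 fold change of 0.01 (95% interval -0.11 to 0.12).

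**Figure D2:**
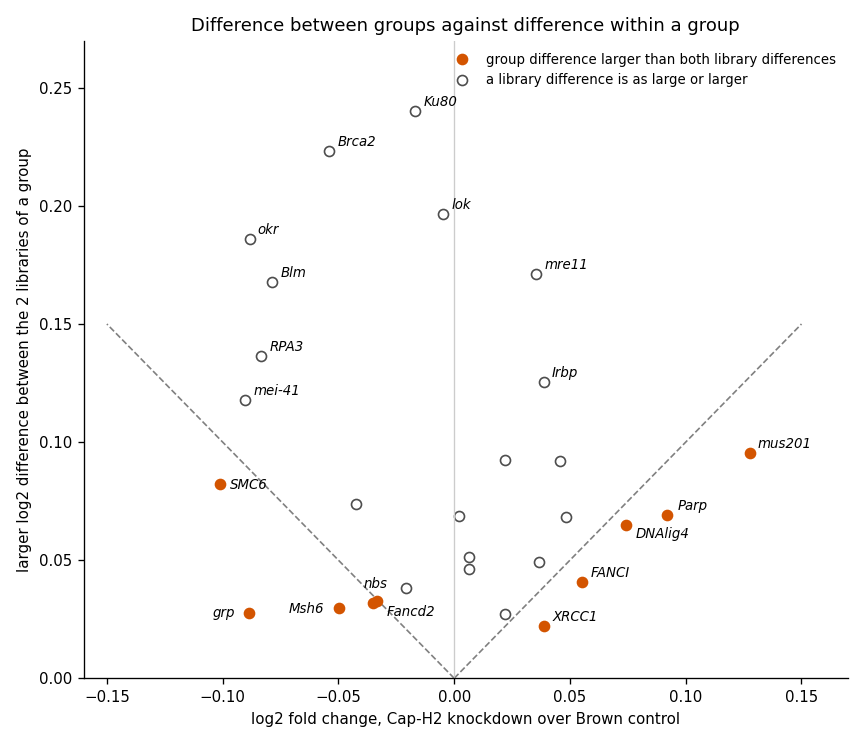
Larger of the within-group differences between library 2 and library 1, without its sign (vertical axis, log2), against the log2 fold change of Cap-H2 knockdown over Brown control (horizontal axis), 1 point for each of 29 repair genes. Filled points, below the dashed lines where both sizes are equal, are the 10 genes whose group difference exceeds both library differences, and Ku80 is the highest point at 0.24.

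Differences between the libraries of a group are not on the same scale as those between the groups. A group difference is taken between means over libraries, and a within-group difference between unaveraged libraries. The within-group difference therefore tends to be the larger even without any effect. For the 31 genes the median size of a within-group difference was 0.0516 in the knockdown and 0.0473 in the control, against a median group difference of 0.0458. For all rows tested the within-group medians were 0.0668 in the knockdown and 0.0687 in the control, against a group difference of 0.0567. The group difference was thus the smaller for the 31 genes and for all rows alike. In 9 of 62 pairs of libraries a gene differed by more than 1.96 counting SD, the bound of a 95% range: tefu, lok, Blm, Brca2 and Ku80 in the knockdown, and mei-41, mre11, Ku80 and Irbp in the control. The largest of these after Ku80 were -0.22 for Brca2 and -0.20 for lok, both between the knockdown libraries. Over all genes, too, the libraries of a group differed by more than counting error. Chi-square over degrees of freedom was 2.86 between the knockdown libraries and 4.87 between the control libraries. The share of all rows beyond the bound was not computed, so this count does not set the repair genes apart.

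Both genes of single-strand break repair were higher in both knockdown libraries than in both controls, and neither passed the threshold. Of all rows, 19.2% lay higher in this way, and 2 genes are too few to give a direction for the pathway. Parp makes poly(ADP-ribose) at breaks, and XRCC1 is the scaffold that gathers the repair enzymes there. Parp (FBgn0010247, chromosome arm 3R, 3461351 to 3587054, minus strand) is a long gene in heterochromatin and had 2683 and 2773 normalized counts in the knockdown, against 2498 and 2621 in the control. The lower knockdown library stood just above the higher control. The means were 2728 ± 63.2 in the knockdown and 2559.6 ± 86.6 in the control (SD, n = 2 each). On the log2 scale the difference was 0.09 (SE 0.04, 95% interval 0.01 to 0.18), with limma's adjusted p at 0.57. Leaving out a library gave log2 fold changes for Parp of 0.06 to 0.13, with a smallest adjusted p of 0.26, without control library 2.

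XRCC1 had 976 and 972 in the knockdown, against 941 and 955 in the control. The libraries were closer to each other within than between groups, yet the log2 fold change was only 0.04 (95% interval -0.07 to 0.15). The ratio of Parp to XRCC1 per kb was 2.05 and 2.13 in the knockdown, against 1.98 and 2.04 in the control. Parp was thus about as far above XRCC1 in both groups, and the difference in ratio was within counting error (log2 difference 0.05, counting interval -0.05 to 0.16).

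Mismatch repair corrects bases that were mispaired during replication, and Msh6 encodes a protein that recognizes them. Msh6 had 3747 and 3672 normalized counts in the knockdown, against 3879.9 and 3800.2 in the control. Both knockdown libraries lay below both controls, and the gene did not pass the threshold. The means were 3709.8 ± 53 in the knockdown and 3840.1 ± 56.3 in the control (SD, n = 2 each). On the log2 scale the difference was -0.05 (SE 0.04, 95% interval -0.12 to 0.02), with limma's adjusted p at 0.76. With 1 library left out, Msh6 ran from -0.06 to -0.03.

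All 4 nucleotide excision repair genes had a positive log2 fold change, between 0.00 and 0.13, and none passed the threshold. Of all rows, 49.9% were above 0. The direction did not hold for the excision genes of this pathway in the wider list described below. Among these only CycH was above 0 (0.11), and the others ran from -0.12 for Ssl1 to -0.02 for Cdk7. This pathway cuts out bulky lesions such as those made by ultraviolet light: XPC (mus210) finds the lesion, the TFIIH helicases XPB (hay) and XPD (Xpd) open the strands and XPG (mus201) makes a cut. The counts of mus201 (FBgn0002887, chromosome arm 2L, 8438169 to 8442342, plus strand) were 852 and 797 in the knockdown, against 753 and 755 in the control. Both knockdown libraries were above both controls, with more spread in the knockdown. The means were 824 ± 38.6 in the knockdown and 754 ± 1.76 in the control (SD, n = 2 each). The estimate on the log2 scale was 0.13, with an SE of 0.06, a 95% interval of 0.00 to 0.26 and, in limma, an unadjusted p of 0.0498 and an adjusted p of 0.61. That was the highest of the 31 genes, and leaving out a library gave 0.08 to 0.18 for mus201.

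The other 3 genes of the pathway were close to the control. The counts of mus210 were 4857 and 4836 in the knockdown, against 4729 and 4819 in the control, with both knockdown libraries just above. The counts of hay were 1178 and 1169.6 in the knockdown, against 1144 and 1200.4 in the control, and those of Xpd were 734 and 727 in the knockdown, against 714 and 740.2 in the control. In both genes the control libraries enclosed the knockdown libraries. The ratio of hay to Xpd per kb was 1.71 and 1.71 in the knockdown, against 1.70 and 1.73 in the control, the smallest difference between groups of the 9 partner ratios. Their 95% intervals were -0.11 to 0.11 for hay and -0.12 to 0.13 for Xpd.

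SMC5 and SMC6 form a complex related to condensin that acts at stalled forks and in recombination, and in flies also at heterochromatic breaks. Both had negative log2 fold changes. SMC6 (FBgn0266282, chromosome arm 3R, 24189050 to 24193423, minus strand) had 885 and 849.8 normalized counts in the knockdown, against 957 and 904 in the control. The knockdown libraries were the lower pair. The means were 868 ± 25.2 in the knockdown and 931 ± 37.6 in the control (SD, n = 2 each). On the log2 scale the difference was -0.10 (SE 0.06, 95% interval -0.22 to 0.02), with limma's adjusted p at 0.68. No other of the 31 genes had a lower log2 fold change. SMC5 had 1398 and 1436 in the knockdown, against 1427 and 1447 in the control, and overlapped. Per kb, SMC5 exceeded SMC6 in every library, by 1.68 and 1.80 in the knockdown, against 1.59 and 1.71 in the control.

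The Fanconi proteins FANCI and FANCD2 form a clamp that marks interstrand crosslinks for repair. Their genes lay on opposite sides of the control, and neither passed the threshold. FANCI (FBgn0033354, chromosome arm 2R) had 869.5 and 894 normalized counts in the knockdown, against 837 and 860.3 in the control. Here too the knockdown libraries were the higher pair. The means were 882 ± 17.6 in the knockdown and 849 ± 16.2 in the control (SD, n = 2 each). On the log2 scale the difference was 0.06 (SE 0.06, 95% interval -0.06 to 0.17), with limma's adjusted p at 0.84. Fancd2 had 827 and 846 in the knockdown, against 846 and 865 in the control, so that knockdown library 2 and control library 1 were all but equal.

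The ratio of Fancd2 to FANCI per kb was 0.937 and 0.932 in the knockdown, against 0.996 and 0.992 in the control. The libraries of a group were closer to each other than to those of the other group, but the log2 difference of -0.09 had a counting interval of -0.23 to 0.05. Over the 9 partner ratios, 3 had groups that did not overlap (mei-41 to mus304, Fancd2 to FANCI and Parp to XRCC1), and the counting intervals of all 9 held 0. With 2 libraries against 2, such a separation has an exact permutation p of 0.333, and the counts of 38.7% of all rows showed it. A count of 3 in 9 thus does not set these ratios apart.

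**Figure D3:**
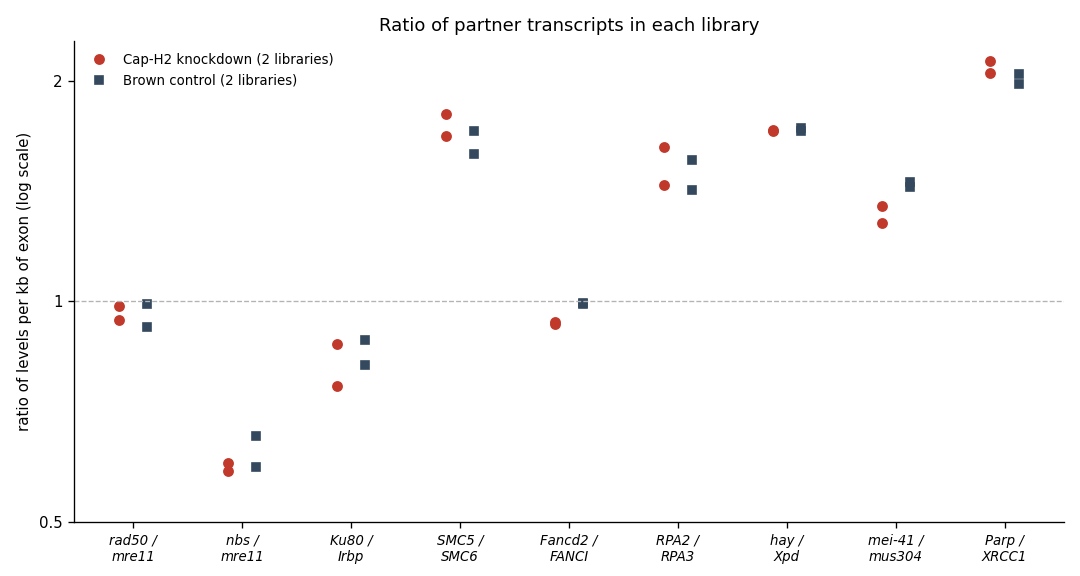
Ratio of normalized counts per kb of exon between the genes of 9 partner pairs (log scale), with a point for each of the 2 Cap-H2 knockdown and 2 Brown control libraries. The ratio of Parp to XRCC1 is near 2 in all libraries, and that of rad50 to mre11 near 1.

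Compared per kb of exon, the 31 genes stood near the middle of the coding genes tested. Their median level was 335 normalized counts per kb, against 330.5 for the 7256 coding genes tested, with 16 of the 31 above that median, 6 above the upper quartile and 4 below the lower quartile. RPA2 had the highest level, at 1737 per kb in the knockdown and 1788 in the control, followed by RPA3 and mus210. Brca2 had the lowest, at 99.0 per kb in the knockdown and 103 in the control, with mus304, okr and Blm just above it. The 2 RPA subunits, the lesion sensor mus210, the mismatch gene Msh6, the checkpoint kinase grp and Parp made up the 6 above the upper quartile.

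Many neighbours in this order did not separate: of 30 neighbouring pairs in the order of control means, 13 were apart over all 4 libraries. RPA2, RPA3 and mus210 were each apart from the next gene. Msh6, grp and Parp overlapped in turn, as did the group of Irbp, mre11 and rad50. At the low end Blm, okr, mus304 and Brca2 each overlapped the next, and DNAlig4 stood apart above Blm. The kinase ATR had a lower RNA level per kb than the kinase it activates: mei-41 stood at 149 in the knockdown and 158 in the control, and grp at 861 in the knockdown and 916 in the control.

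**Figure D4:**
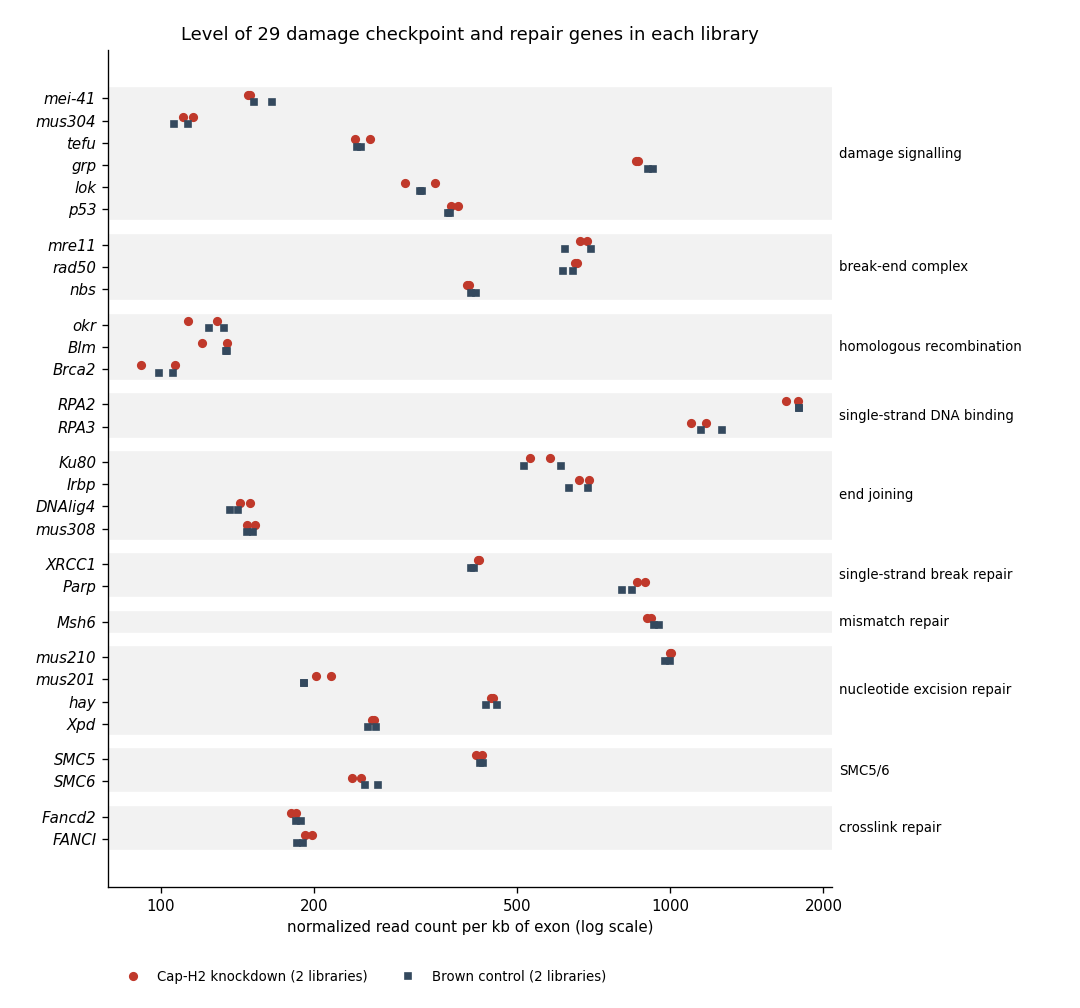
Normalized counts per kb of exon (log scale) of 29 of the 31 repair genes in the 2 Cap-H2 knockdown and 2 Brown control libraries, grouped by role. Brca2 is the lowest, with means of 99.0 in the knockdown and 103 in the control, and RPA2 the highest, with means of 1737 in the knockdown and 1788 in the control.

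A wider list of repair genes, named from the same pathways and outside the 31, gave 58 genes tested of 70 named, 1 of the 70 being SMC6 under another name. None passed the threshold in limma, against 0.39% of all rows, or in edgeR, against 0.364%. DESeq2 also called none of them without its independent filtering, against 0.455% of rows. With that filtering it called none either, but 5367 of the 7690 rows had no adjusted p. In limma 1 of 58 (1.72%) had an unadjusted p under 0.05, against 8.13% of rows. That count was 1 in edgeR, against 8.36% of rows, and 0 in DESeq2, against 2.86%. Their median log2 fold change was -0.03, with 36 below 0 and 22 above. The groups did not overlap in 24 of them (41.4%), of which 18 lay lower in the knockdown and 6 higher. The share lower was 31%, against 19.5% of all rows, and the share higher was 10.3%, against 19.2%.

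The gene with the smallest p of the 58 was Fen1, the flap endonuclease of long-patch base excision repair and of lagging-strand replication. Its normalized counts were 533 and 484 in the knockdown, against 591 and 578 in the control. Both knockdown libraries were below both controls (log2 fold change -0.20, SE 0.07, 95% interval -0.36 to -0.05, limma adjusted p = 0.43). Among the genes on the higher side was Pms2, a mismatch repair protein. Pms2 had 647 and 633 in the knockdown, against 571 and 609 in the control (log2 fold change 0.12, limma adjusted p = 0.68).

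How far these values can be read is set by the libraries. The 31 genes had between 296 and 4871 reads a library, with a median of 975, which gives a counting SD of 5.81%, 1.43% and 3.20%. The sign of the log2 fold change turned in 12 of them when 1 of the 4 libraries was left out (mus304, tefu, lok, mre11, okr, Blm, Brca2, Ku80, Irbp, mus308, hay and Xpd), and 19 kept their sign under every alternative run. The share of all rows whose sign turned was not computed, so these counts do not set the 31 genes apart. Of the 31 genes, 15 share exonic bases with another gene, 2 of them on the same strand (grp with squ, and hay with CG34001 over 117 of 2628 bp).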

How the data were processed

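RNA from 4 BG3 libraries was sequenced, 2 after dsRNA against Cap-H2 and 2 after dsRNA against Brown. The submitters' processing notes name fastp, HISAT2, HTSeq and the build dm6, while versions, annotation and strand setting are not given in the sources used here. Normalized counts were deposited, a signal in which each library's reads were scaled by 1 factor. With that factor undone, 100% of values were whole reads (tolerance 0.001 reads). Special HTSeq rows (11.5% to 13.9% of reads) were left out. The authors also deposited log2 fold changes with p-values, and -log2 p columns treated as a score, of which p-values alone were quoted.

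The test was limma 3.58.1 (R 4.3.3, mean trend, two-sided) on log2(normalized count + 1) over 7690 rows, those whose mean reached 10; 1116 rows were left out. Fold changes on this scale understate those of low genes. Benjamini-Hochberg adjustment ran over all rows tested, with calls at 0.05. With 2 libraries against 2, the smallest exact permutation p is 0.333. Alternatives were pseudocounts of 0.5 and 5, no minimum, a minimum of 50, a replicate block, robust empirical Bayes, TMM factors, quantile normalization, median centring, each library left out, and edgeR 4.0.16 and DESeq2 1.42.0 on the whole reads. The tests were tried on simulated data. DESeq2 without independent filtering was added after the data were seen. Lengths, overlaps and coordinates came from BDGP6 annotation 54 (Ensembl release 115), the dm6 assembly. No libraries were duplicates: chi-square over degrees of freedom was lowest, at 2.86, in the knockdown pair.

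The members and lists were chosen with earlier results of these data known. The rule named all 31 genes by role, with full statistics for the smallest p in each role, and the 2 further repair genes with the smallest p in each direction. Of these, 2 of the 31 genes and 2 further genes are not reported here, though they count in the totals, and Msh6 has full statistics instead. RPA1 was added after its values were seen, as were rpr, egr, hid, Gadd45, CycH, Ssl1 and Cdk7. Genes with no row and bw were not analysed here. Counting intervals are 1.96 SE from read numbers and cover counting error only.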

Additional observations from a re-analysis of the deposited data

How the results depend on the processing

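Over 16 alternatives, 1 of them added after the data were seen, no repair gene was called. With no library left out, the count at an unadjusted p under 0.05 was 3, and 0 in DESeq2 with and without independent filtering. It was 2 with a pseudocount of 5, TMM factors or robust empirical Bayes (without mus201), median centring (without grp) and quantile normalization (without Parp). Of the 7690 rows, 625 had such a p in the main run, 628 with a pseudocount of 5 or TMM factors and 663 with robust empirical Bayes. The number of rows was 616 with median centring, 541 with quantile normalization, 785 with the replicate block and 220 in DESeq2. The median log2 fold change of the 31 genes ran from -0.031 to 0.0077 when a library was left out. The value of lok became 0.0093 under median centring, which moves the median of all rows to 0.01, and 0.0044 under quantile normalization. With a library left out, the values were -8.2e-05 to 0.092 for mus304, -0.024 to 0.068 for tefu, -0.10 to 0.093 for lok, -0.050 to 0.12 for mre11, -0.18 to 0.0047 for okr and -0.16 to 0.0054 for Blm. They were -0.17 to 0.058 for Brca2, -0.14 to 0.10 for Ku80, -0.024 to 0.10 for Irbp, -0.017 to 0.029 for mus308, -0.033 to 0.036 for hay and -0.019 to 0.032 for Xpd. The cause was not tested. The replicate numbers are not said to pair samples, and the library 2 minus library 1 differences of the groups had a correlation of -0.0271 over rows. With a replicate block, 146 rows were called, against 30 without it, and of the repair genes 0 were called and 3 had an unadjusted p under 0.05, with a smallest adjusted p of 0.37 (Parp). The unadjusted count of the further repair genes was 1, and 2 with median centring or the block, 3 with quantile normalization and 0 in DESeq2. These stand beside the counts of all rows given above, and 0 of the further repair genes were called throughout. The count of calls over all rows was 59 with robust empirical Bayes, 14 with quantile normalization and 41 to 127 with a library left out. In DESeq2, 24 of the 31 genes and Cap-H2 had no adjusted p. Cap-H2 ran from -0.69 to -0.65 over the alternatives.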
